A study of Mus musculus with 451 samples.

Results

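Tenomodulin (Tnmd) was followed through 451 single cells of mouse tail tendon, of which 227 came from wild-type (WT) and 224 from Mkx-/- mice. It was taken by its symbol from the count table and was 1 of 48795 symbols listed and of 25841 with at least 1 read. All mice were C57BL/6 and 4 weeks old. The genotypes differ in Mkx, a homeobox transcription factor of tendon, and the labels give no other allele or treatment and no detail of the deletion. Tendon cells were freed with collagenase, captured on a microfluidic chip and sequenced 1 by 1. No label ties a cell to an animal or a chip, so each genotype was treated as 1 sample. No test between genotypes was possible, and the 95% intervals below cover counting error only. The reads carry no molecular identifiers, so they are not independent molecules and true intervals are wider.

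Tenomodulin is a type II membrane glycoprotein of tendons and ligaments and is widely used as a marker of mature tendon cells. It carries a BRICHOS domain and a cysteine-rich extracellular end that is related to chondromodulin and is known to restrain vessel growth. Its transcription is placed downstream of Scleraxis (Scx), the basic helix-loop-helix factor of tendon, and of Mkx.

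In the NCBIM37 assembly with GENCODE annotation the gene lies at chrX:130385519-130400116 on the plus strand. It has 1 annotated transcript with 7 exons, 1353 exonic bases and a coding sequence of 951 bases. The count table gives symbols without coordinates. The stretch in front of the gene is shown because Scx and Mkx, which bind DNA, were read mostly in the cells that held much Tnmd. It ends just before the annotated start and covers chrX:130385297-130385518 (NCBIM37, plus strand). The letters are RefSeq's and were found at 1 place on that chromosome.

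Tnmd upstream: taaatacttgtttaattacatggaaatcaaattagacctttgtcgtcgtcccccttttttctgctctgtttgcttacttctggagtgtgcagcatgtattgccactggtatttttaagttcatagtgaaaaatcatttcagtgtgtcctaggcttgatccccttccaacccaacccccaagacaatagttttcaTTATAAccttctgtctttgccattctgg

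The capitals mark the only matches in this stretch among 4 searched motifs. They are 2 overlapping matches to TATAA, 1 on each strand, at -28 to -23 from the annotated GENCODE start. The RefSeq start lies 28 bases further downstream, and from it they begin at -56 and -55. Over the 300-base RefSeq window, which reaches further into the gene, TATAA on either strand was found in 24.9% of 32851 mouse promoters of the same length. The E-box CANNTG, the general motif of factors such as Scx, was not in the Tnmd window and was in 72.3% of all promoters. The Smad motif CAGAC and the Egr motif GCGTGGGCG were also not found, against 49.6% and 0.612% of all promoters on either strand. These are descriptions of letters in a short window and say nothing of binding elsewhere.

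Total reads ran from 13076 to 335813 per cell. Mkx itself stood at 68.2 CPM in the WT and 29.1 CPM in the Mkx-/- cells that are called high in Tnmd below, where CPM is a read count scaled to a common total, and 57.7% against 26.2% of these cells held an Mkx read. Reads were counted per gene, so these counts do not show whether the remaining Mkx reads come from outside the deleted part. Endothelial markers were rare. WT cells held 459 reads of them, of which 87.8% were in 1 well, and Mkx-/- cells held 50. Muscle markers were close to 0 in both genotypes. The share of cells with a read of a Y-linked gene was 67.8% in WT and 73.2% in Mkx-/-, and Xist, which marks cells with an inactive X chromosome, had 0 and 1 reads. Both preparations thus held male cells, which carry 1 copy of the X-linked Tnmd.

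Tnmd took 2 levels. Cells with a log2(CPM + 1) of 10 or more are called high here and all the rest other. The high group held 78 of 227 WT cells and 84 of 224 Mkx-/- cells. Between 9 and 10 lay 1 WT and 2 Mkx-/- cells. The WT cells closest to the threshold stood at 9.89 below it and 10.29 above it, and the Mkx-/- cells at 9.56 and 10.29. The next cells below were at 8.72 in WT and 9.42 in Mkx-/-.

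High WT cells held 53 to 963 Tnmd reads each, with a median of 288.5. On the log2(CPM + 1) scale they ran from 10.29 to 12.86 with a median of 11.94 (SD 0.63, 78 cells). High Mkx-/- cells held 67 to 2291 reads, with a median of 314.5. Their log2(CPM + 1) ran from 10.29 to 13.49 with a median of 12.26 (SD 0.76, 84 cells). The ranges overlapped over nearly their whole length, and the Mkx-/- range reached further up. High cells held 98.5% of all Tnmd reads in WT and 97.8% in Mkx-/-. The leading cell of each genotype supplied 3.80% and 6.36% of its genotype's Tnmd reads, so neither sum rested on 1 cell.

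**Figure D1:**
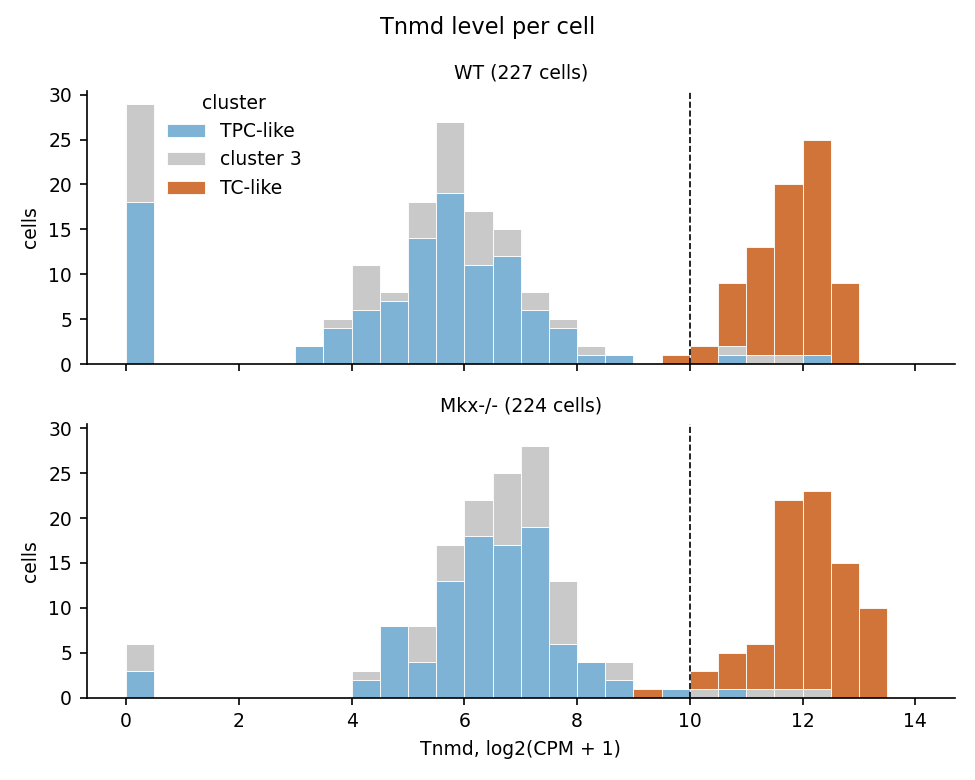
Number of cells (vertical axis) at each Tnmd level, log2(CPM + 1) (horizontal axis, equal bins), for WT above and Mkx-/- below, with colours for the 3 cell clusters and a dashed line at the threshold of 10. The high cells form a separate hump of mostly TC-like cells, 29 WT and 6 Mkx-/- cells stand at 0, and 10 Mkx-/- but 0 WT cells reach 13 or more.

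Over the high cells the coefficient of variation of per-cell CPM was 0.406 in WT and 0.490 in Mkx-/-, with the low end set by the threshold in both.

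Most of the other cells held a few Tnmd reads, 80.5% of them in WT and 95.7% in Mkx-/- with at least 1. In WT these cells held 375 Tnmd reads together, and 29 had 0, 33 had 1, 84 had 2 to 10 and 3 had more. In Mkx-/- they held 804 reads, and 6 had 0, 14 had 1, 13 had more than 10 and the rest had 2 to 10. The summed level was 53.3 CPM (48.04 to 58.97) in WT and 115.4 CPM (107.5 to 123.6) in Mkx-/- other cells. Relative to the high cells of the same genotype, these are 1.41% and 2.35%.

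In high cells Tnmd reads rose with the total reads of the cell, as described by a Spearman rho of 0.67 over 78 WT and 0.43 over 84 Mkx-/- cells. In the other cells the rho was -0.12 in WT and 0.31 in Mkx-/-. The low Tnmd reads of WT cells, 2.52 per cell on average, were thus nearly flat against depth.

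**Figure D2:**
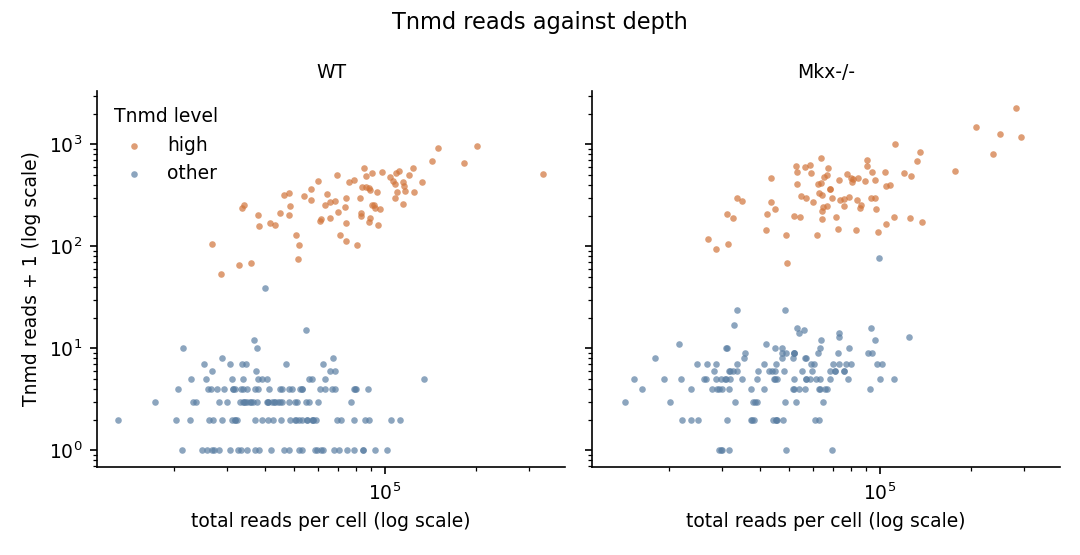
Tnmd reads plus 1 against the total reads of each cell, both on log scales, for WT (left) and Mkx-/- (right), with 1 point per cell. High cells rise with depth, whereas the other cells lie in a band of few reads that is nearly flat in WT and sits higher in Mkx-/-.

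Among the 870 genes with 5000 or more reads in all, the ratio of CPM in high over other cells put Tnmd at rank 3 in WT, with a log2 of 6.15, and at rank 1 in Mkx-/-, with 5.41. For Tnmd this ratio follows from the definition of the groups and is given as a description. Other genes with large ratios also had low levels in the other cells. Fmod, a collagen-binding proteoglycan, had 66.2 CPM there in WT and 170.6 CPM in Mkx-/-, and Kera, a related one, had 11.9 and 49.5 CPM. Whether the low reads come from the cells themselves or from RNA carried between wells was not tested.

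Cells were clustered on other genes, with Tnmd left out, into 3 clusters. One was called TC-like after the tenocyte markers and one TPC-like after the tendon progenitor markers, and cluster 3 stayed unnamed because only 2 markers were listed for tenoblasts. The high level nearly coincided with the TC-like cluster. Of 74 WT TC-like cells 73 were high, and of 80 Mkx-/- TC-like cells 79 were. Outside it, high cells were 1.87% of the TPC-like cells in WT (2 cells) and 1.02% in Mkx-/- (1 of 98), and in cluster 3 they were 3 of 46 in WT and 4 of 46 in Mkx-/-. The genes that led the TC-like cluster were Col2a1, the main collagen of cartilage, Col11a2, Cilp2, 1500015O10Rik and Tnmd.

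Tnmd stood at 3825 CPM (3777 to 3873) in WT and 5002 CPM (4949 to 5055) in Mkx-/- TC-like cells. The TPC-like cluster had 99.2 CPM (90.8 to 108.02) and 143.99 CPM (133.7 to 154.8). Cluster 3 held 251 CPM (230 to 274) and 335 CPM (311 to 360), most of it in its few high cells. Without the high cells, TPC-like cells and cluster 3 stood close to each other, at 49.1 and 45.5 CPM in WT and at 113.96 and 109.2 CPM in Mkx-/-. TC-like cells were also read more deeply, with a median of 82854 reads in WT and 72897 in Mkx-/- against 43122 and 48676.5 in TPC-like cells.

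Within the high cells, few genes varied with Tnmd in both genotypes. Spearman's rho was taken on log2(CPM + 1) over 78 WT and 84 Mkx-/- cells for 1835 genes found in at least 50% of the high cells of each genotype. The median rho was -0.05 in WT and -0.08 in Mkx-/-. It reached 0.4 or more in both genotypes for 3 genes, which is 0.163% of those compared, and -0.4 or less for 2 genes, which is 0.109%. The cells of a genotype share a preparation and CPM values within a cell share 1 total, so these values are descriptions. Tnmd CPM in high cells itself fell with the number of genes read, with a rho of -0.32 in WT and -0.37 in Mkx-/-. With depth its rho was -0.11 and -0.25. How far the rhos with other genes reflect the number of genes read was not tested.

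Serpinf1, the secreted serpin PEDF known to restrain vessel growth, was most alike with a rho of 0.54 in WT and 0.64 in Mkx-/-. Fmod followed with 0.44 and 0.57, and Htra1, a secreted serine protease, with 0.55 and 0.43. The next in order were Kera (0.38 and 0.47), Col6a2, a chain of collagen VI (0.46 and 0.36), Sparc, a collagen-binding matricellular protein (0.32 and 0.31), and Pcolce, which enhances procollagen processing (0.40 and 0.31). Dcn, C1qtnf6 and Col1a2 completed the 10 most alike. With each cell thinned to 13000 reads, Serpinf1 kept 0.54 and 0.59, whereas Fmod fell to 0.37 in WT and Htra1 to 0.39 in Mkx-/-, so 1 gene remained over 0.4 in both. With totals that leave out Col1a1, Col1a2 and Sparc, 9 genes were at 0.4 or more in both.

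On the opposite side stood Mfap5, a microfibril protein, with a rho of -0.43 in WT and -0.44 in Mkx-/-, and Col3a1, the chain of collagen III, with -0.41 in both. Pvr, a nectin-like adhesion receptor, had -0.40 and -0.47 and just missed the threshold in WT. Gsn, the actin-severing gelsolin, had -0.33 and -0.47, and Eef2, a translation factor, had -0.35 and -0.36. Mfap5, Col3a1, Pvr and Gsn were at the same time lower in high than in other cells, with log2 ratios of -2.89, -2.41, -1.64 and -2.21 in WT. With thinned cells no gene was at -0.4 or less in both genotypes, and with the reduced totals 4 were. In the high cells of the TC-like cluster alone, Mfap5 had -0.39 in WT and -0.43 in Mkx-/-, and Col3a1 had -0.37 and -0.36. Pvr had -0.43 and -0.46 there. Serpinf1, Fmod and Htra1 stayed at 0.4 or more in both genotypes in these cells.

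**Figure D3:**
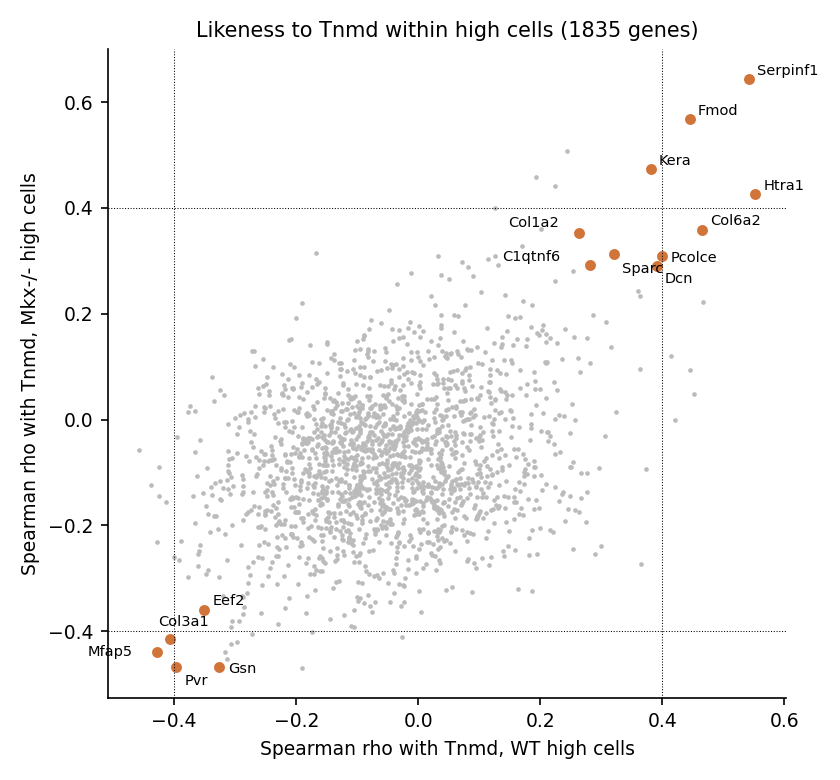
Spearman rho with Tnmd over the high cells of WT (horizontal axis) and Mkx-/- (vertical axis) for 1835 genes, with the 10 most alike and 5 most opposed genes named in colour and dotted lines at 0.4 and -0.4. Most genes lie close to 0, and Serpinf1, Fmod and Htra1 alone lie beyond 0.4 on both axes.

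**Figure D4:**
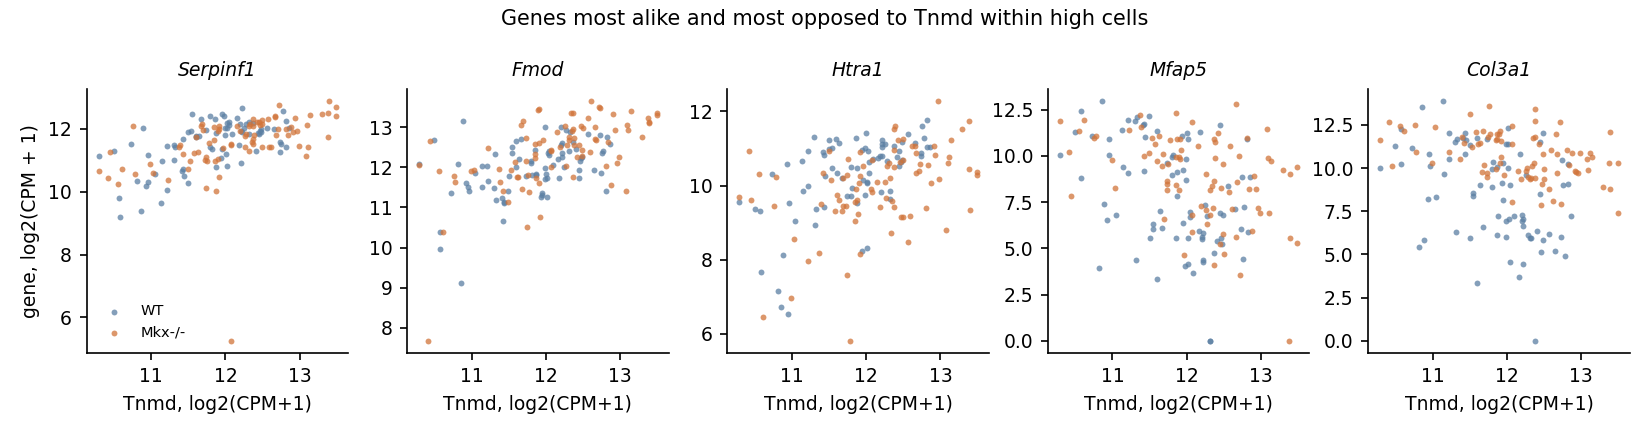
Level of 5 genes against that of Tnmd in each high cell, both as log2(CPM + 1), with WT in blue and Mkx-/- in orange. Serpinf1, Fmod and Htra1 rise with Tnmd, with wide scatter, and Mfap5 and Col3a1 fall.

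Over all cells instead of high cells, the genes most like Tnmd were those that separate the TC-like cells. Among 4710 genes these were Fmod (rho 0.79 in WT and 0.81 in Mkx-/-), 1500015O10Rik (0.75 and 0.77), Kera (0.75 and 0.76) and the collagen I genes Col1a1 (0.73 and 0.78) and Col1a2 (0.73 and 0.77). The 2 orders overlapped in part. Fmod, Kera, Serpinf1, Sparc and Col1a2 were among the 10 most alike in both. Col1a1, at rank 4 over all cells, had 0.25 and 0.28 within high cells. That is next to Col1a2, at rank 10 there with 0.26 and 0.35. Cilp2, a cartilage and tendon matrix protein, went from 0.63 and 0.72 to 0.19 and 0.22.

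The company of Tnmd was then read from listed genes with 100 or more reads in all. A gene was counted as higher or lower in high cells where its CPM differed 2-fold or more in both genotypes. Of 10962 genes besides Tnmd, 3.76% were higher and 14.6% lower in high cells, and the median log2 ratio was -0.65 in WT and -0.46 in Mkx-/-. High cells were deeper than other cells, with medians of 81693 against 41921 reads in WT and 72272 against 46389 in Mkx-/-. Collagen I and Sparc took 30.1% of all reads of WT and 21.4% of Mkx-/- high cells, which lowers the CPM of every other gene there.

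Among 11 measured regulators, 6 were higher and none lower. Scx had 93.1 CPM in high and 1.28 CPM in other WT cells, and 67.9 and 6.03 CPM in Mkx-/- cells. Mkx had 68.2 and 1.56 CPM in WT and 29.1 and 1.43 CPM in Mkx-/- cells. Six2 and Eya2, homeobox and cofactor genes of the same developmental network, rested on 4 and 2 reads in WT other cells. Eya1 and the zinc finger gene Egr2 were the remaining ones. Among the high cells, those with and without an Mkx read had like Tnmd levels, with median log2(CPM + 1) of 11.95 and 11.94 in WT and 12.32 and 12.22 in Mkx-/-. For Scx they were 12.06 and 11.76 in WT, where cells with a Scx read were also deeper (90851.5 against 74249.5 reads), and 12.29 and 12.23 in Mkx-/-.

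Of 13 measured signalling genes only Tgfb3, a TGF-beta ligand of tendon, was higher, with log2 ratios of 1.53 and 1.12 in WT and Mkx-/-. The ligand Tgfb1, which rested on 10 and 2 reads in high cells, and the receptor Tgfbr2 (-1.73 and -1.20) were lower.

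Tendon matrix genes divided. Of 34, 16 were higher and 5 lower, and the median log2 ratio was 1.08 in WT and 1.62 in Mkx-/-. Higher ones included Fmod (5.99 and 5.07), Col11a1 (5.47 and 4.51), Kera (5.92 and 4.15) and Tnc, the glycoprotein tenascin C (4.20 and 2.91). The lower ones were Col3a1, Col14a1, the proteoglycan Aspn, the microfibril gene Fbn1 (-2.58 and -2.39) and the crosslinking enzyme Loxl1. Of 8 measured osteochondrogenic genes 6 were higher and none lower. Col2a1 had 6.76 and 5.27, and Spp1, the bone matrix protein osteopontin, had 4.02 in Mkx-/- cells and rested on 4 reads in WT other cells. Spp1 was read in 28.2% of WT and 66.7% of Mkx-/- high cells, and high cells with and without it had Tnmd medians of 11.80 and 11.97 in WT and of 12.29 and 12.20 in Mkx-/-, in opposite order.

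Of 7 measured vessel growth genes none was higher and 2 were lower, where 14.6% of all genes were lower. These were the ligands Angpt1 (-2.25 and -1.44), which rested on 27 and 25 reads in high cells, and Pgf (-2.82 and -1.14). Vegfa, the main vessel growth ligand, had -1.23 and -0.77, against medians of -0.65 and -0.46 over all genes. The rest were Vegfb (-0.49 and -1.28), Hif1a (-0.20 and 0.32), Thbs1 (0.24 and 1.11) and Flt1 (2.04 and -1.57). Of 5 measured cell cycle genes 3 were lower by summed reads, the proliferation marker Mki67 (-1.92 in both genotypes), Top2a and Ccnb1. They were read in few cells, and for none was the share of cells with a read lower in both genotypes. Mki67 was read in 6.41% of high and 10.1% of other WT cells and in 5.95% and 5% of Mkx-/- cells. For Top2a these shares were 10.3% and 6.04% in WT and 3.57% and 9.29% in Mkx-/-. All 5 progenitor markers were lower, for example Ly6a, a surface antigen of progenitors (-2.33 and -1.98). Of the other BRICHOS genes 3 were measured and none was called. Itm2a had -1.39 and -0.55, Itm2b -0.61 and -0.46 and Itm2c 1.47 and 0.68. Chondromodulin, the closest relative of Tnmd, was nearly unread, with 7 WT and 34 Mkx-/- reads, and 5 of the 9 relatives had no read in high cells. Markers of other cell types did not all stand level. Immune markers summed to 84.3 CPM in high and 150.1 CPM in other WT cells and to 9.75 and 173.3 CPM in Mkx-/- cells. Their part in these results was not tested. The 5 housekeeping genes had medians of -0.79 and -0.45, close to those of all genes.

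**Figure D5:**
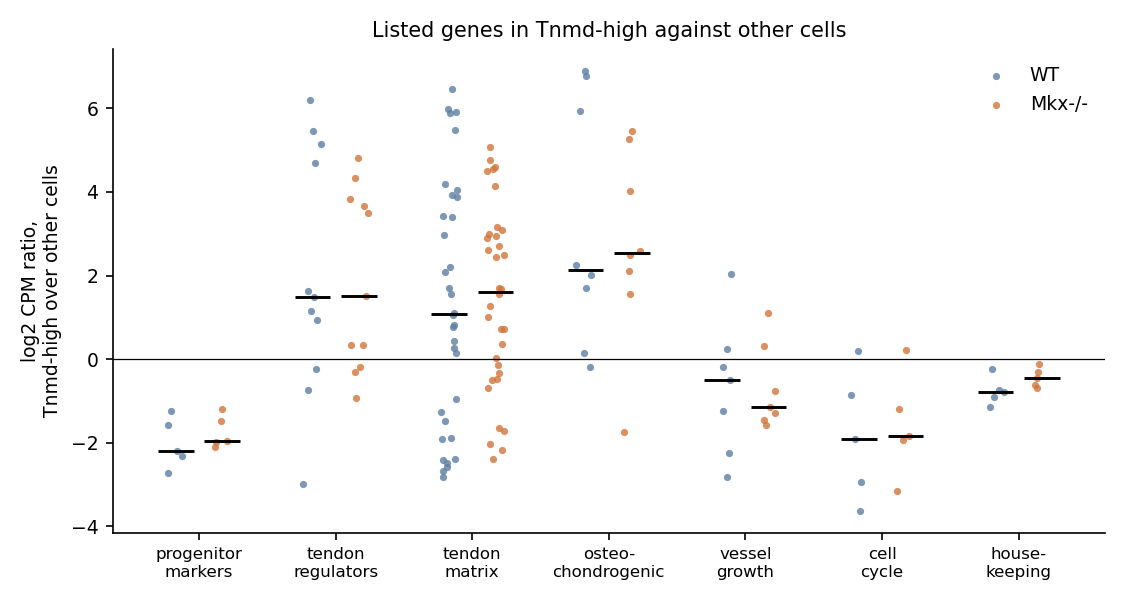
Log2 ratio of CPM in Tnmd-high over other cells (vertical axis) for the genes of 7 lists (1 point per gene with 100 or more reads, black bars at the list median), WT in blue and Mkx-/- in orange. Tendon regulators, matrix and osteochondrogenic genes have medians above 0, and progenitor, vessel growth, cell cycle and housekeeping genes below it. The median of all genes is also below 0, at -0.65 in WT and -0.46 in Mkx-/-.

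By summed CPM, Tnmd was higher in Mkx-/- than in WT over all cells, within high cells, within other cells and in each cluster. Over all cells Tnmd had 25321 of 13630536 reads in WT, or 1858 CPM (1835 to 1881), and 36040 of 14145394 reads in Mkx-/-, or 2548 CPM (2522 to 2574). The log2 ratio of Mkx-/- over WT was 0.46 (0.43 to 0.48), and 0.30 in the 440 cells with under 5000 genes. Within high cells it was 0.38 (0.35 to 0.40), from 3783 CPM (3736 to 3830) to 4910 CPM (4859 to 4962). Within other cells it was 1.11 (0.94 to 1.29). That rise was not particular to Tnmd. Besides Tnmd, 13 genes were among the 12 largest high-over-other ratios of either genotype. Of these, 12 were higher in Mkx-/- other cells and 9 were 2-fold or more higher. Over all 870 genes with 5000 or more reads the median log2 ratio in other cells was 0.01, and 2.18% were 2-fold or more higher. The intervals cover the counting of reads in these cells, not how much cells or animals differ. The variance of Tnmd reads per high cell was 99.5 times their mean in WT and 263.2 times in Mkx-/-.

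The share of high cells was 34.4% (28.2 to 40.9) in WT and 37.5% (31.1 to 44.2) in Mkx-/-, a difference of 3.14 percentage points (-5.68 to 11.9). A Tnmd read was present in 87.2% (82.2 to 91.3) of WT and 97.3% (94.3 to 99.01) of Mkx-/- cells. With each cell thinned to 13000 reads the shares were 67.8% and 77.7%. Among other cells, the share with 5 or more Tnmd reads was 11.4% in WT and 48.6% in Mkx-/-.

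Within the high cells the quartiles stood higher in Mkx-/-, by 0.30 at the lower quartile, 0.32 at the median and 0.42 at the upper quartile on the log2 scale, whereas the lowest cells, next to the threshold, were at 10.29 in both. Of 84 Mkx-/- cells, 15 lay above the highest WT cell and 35 below the WT median. By cluster, the TC-like log2 ratio was 0.39 (0.36 to 0.41). The TPC-like one was 0.54 (0.37 to 0.70) and that of cluster 3 was 0.41 (0.25 to 0.58), and the few high cells held 270 of 524 and 418 of 501 of these clusters' WT reads. Without them the ratios were 1.21 (0.998 to 1.43) and 1.26 (0.89 to 1.65).

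The size of the difference within high cells was ordinary among genes. Of 8356 genes with 100 or more reads in high cells, 13.5% were 2-fold or more higher and 6.7% 2-fold or more lower in Mkx-/-, and 38.7% had a larger ratio than Tnmd. The median log2 ratio over these genes was 0.20, so Tnmd stood 0.17 above it. Totals taken without Col1a1, Col1a2 and Sparc lower every ratio by 0.17 and bring Tnmd to 0.21. Without the deep WT well that held most endothelial reads the Tnmd ratio was 0.33, and leaving out the 1 cell with most Tnmd reads on each side gave 0.35.

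The genes most like Tnmd within high cells did not share 1 genotype difference. Fmod had a log2 ratio of 0.45, Kera 0.28 and C1qtnf6 0.54, whereas Serpinf1 had 0.04, Pcolce -0.03 and Dcn -0.14. Htra1 (-0.39), Sparc (-0.37), Col1a1 (-0.45) and Col1a2 (-0.57) were lower in Mkx-/- cells. Of the 34 tendon matrix genes, 12 were 2-fold or more higher in Mkx-/- high cells, among them the proteoglycan Bgn (2.21) and Cilp2 (1.62), and 1 was 2-fold or more lower, Col11a2 (-1.35). Scx had -0.46 and Mkx -1.23.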

How the data were processed

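Single cells were captured on a Fluidigm C1 chip and sequenced by the authors, who deposited 1 table of raw read counts per gene symbol and cell. Per the submitters' processing notes the tools were Bowtie2 and featureCounts with the build mm10. The study's methods name mm9, and coordinates here are those of NCBIM37. Multi-mapping and strand settings are not given in the sources used here. Counts were turned into CPM over each cell's total and log2(CPM + 1) with a pseudocount of 1 CPM. No cell was removed and doublets were not called. Levels of a group are summed reads over summed totals, with 95% exact Poisson intervals, and shares have 95% exact binomial (Clopper-Pearson) intervals. Differences of shares have Newcombe intervals. Genes listed at 0 reads were set at a floor of 3 reads per group in ratios.

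Clusters came from Seurat 5.3.0 (R 4.3.3), with genotypes joined by canonical correlation anchors, 1000 variable genes per genotype, 4 dimensions, a resolution of 0.4 and Tnmd left out. Other steps used Python 3.11.15 with numpy 2.4.6, scipy 1.17.1 and pandas 2.3.3, and were tested on simulated data. Named genes were the 10 with the largest and the 5 with the lowest of the rho shared by both genotypes, the 10 most alike over all cells, and listed genes. The gene and the lists were chosen with earlier results of these data known. With 1 sample per genotype no test was made.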

Additional observations from a re-analysis of the deposited data

How the results depend on the processing

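Every alternative kept the Mkx-/- over WT direction of Tnmd. Over all cells the log2 ratio of 0.46 became 0.52 as the mean of per-cell CPM and 0.52 with cells thinned to 13000 reads, 0.42 without the leading cell of each genotype, 0.40 with totals that leave out Col1a1, Col1a2 and Sparc and 0.30 in cells under 5000 genes. Within high cells the 0.38 became 0.35 without the leading cells and 0.21 with those totals. It was 0.33 without the WT well with most endothelial reads, an alternative chosen after seeing the data. The 3 genes with a rho of 0.4 or more became 1 after thinning and 9 with the reduced totals, and the 2 at -0.4 or less became 1 with Pearson's correlation, 1 with a threshold of 9, 0 after thinning and 4 with the reduced totals. With 10 dimensions the TPC-like ratio of 0.54 became 1.61, since the Mkx-/- cluster then held 3 high cells and the WT cluster 1. Without high cells, also chosen after seeing the data, it was 1.21 and that of cluster 3 went from 0.41 to 1.26. The other 27 recomputed values moved by less than their counting interval or, for counts, by less than 1.5 times. Apart from the clusters, the cause of these moves was not tested. No paired analysis was possible because the labels give no replicate numbers shared by the genotypes. With 1 sample per genotype, depth limits mainly the low level, where a cell holds a few reads.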

Other observations

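The nearest genes on the chromosome did not share the high level of Tnmd to the same degree. Tspan6, a tetraspanin gene with 298 reads in WT and 251 in Mkx-/- cells, had 33.97 and 23.4 CPM in high cells and 10.5 and 11.9 CPM in other cells. Its log2 ratios of high over other cells were 1.69 and 0.98, against medians of -0.65 and -0.46 over all genes. Pcdh19 had -5.60, on 3 reads in WT high cells, and -0.11 in Mkx-/-. The neighbour 4930570D08Rik had 1 read in WT, and Gm16795 was not among the listed symbols.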
